A study of Mus musculus with 15 samples.

Results

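The genes described here are the PGC-1 axis and the regulators of mitochondrial biogenesis that it acts through. They are 10 of the 45706 genes counted, chosen by name and not by a rule on measured values, though with earlier results of these data known. The 10 are the coactivators Ppargc1a, Ppargc1b and Pprc1, the transcription factors Esrra, Nrf1 and Gabpa, the deacetylase Sirt1, and Tfam, Polg and Twnk, which maintain and transcribe mitochondrial DNA. All 10 were found in the count table and all 10 passed the filter on low counts, which left 18983 genes for testing. In 7 comparisons among 4 genotypes none of the 10 genes passed an adjusted p of 0.05 by edgeR, beside 0.0369% to 0.448% of all genes. Without telomerase RNA, 8 of the 10 had a slightly higher and 2 a slightly lower estimate, with a median log2 fold change of 0.034 that was 0.0052 without G3 mTerc-/-Puma+/+ replicate 2. The lowest unadjusted p belonged to Sirt1, whose level in Puma-/- cells was below that in WT cells in every library, beside 9.71% of all genes whose groups do not overlap in that comparison.

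RNA was taken from lineage-negative bone marrow cells, which are marrow cells depleted of those that carry markers of mature blood lineages, of mice that had received a secondary transplant. The donors were CD45.2 mice on a C57BL/6J background, and the irradiated recipients carried CD45.1, so that cells of the host may remain in the marrow. WT (3 libraries) carries both genes. Puma-/- (4 libraries) lacks Puma, listed as Bbc3, which encodes a pro-apoptotic protein induced by p53. G3 mTerc-/-Puma+/+ (4 libraries) is the third generation of mice without mTerc, listed as Terc, the RNA template of telomerase, in which telomeres shorten from generation to generation. G3 mTerc-/-Puma-/- (4 libraries) is the label for the same generation without both genes. Both deletions are inherited through the germline of the mouse lines, and not made in chosen cells. Whether each library came from a separate recipient is not stated in the labels, and p-values then measure the spread between these libraries.

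PGC-1 alpha, PGC-1 beta and the PGC-1-related coactivator bind no DNA themselves. They dock on transcription factors such as ERR alpha, NRF-1 and the GABP complex and switch on nuclear genes of the respiratory chain and of mitochondrial DNA upkeep, Tfam among them. In telomerase-deficient mice this axis has been proposed to be repressed by p53, and the comparison of mTerc-/- with mTerc+/+ cells measures the level of its genes. PGC-1 alpha is best known from brown fat, muscle, heart and liver.

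The libraries held 102790519 to 158367059 counts each. Terc had 0 or 1 counts in the 8 libraries labelled mTerc-/- and 4 to 17 in the others. Bbc3 lay between 4.80 and 7.28 CPM (counts scaled to a common library size) in Puma-/- and between 9.65 and 22.1 CPM in WT, but the libraries labelled as G3 mTerc-/-Puma-/- held 13.6 to 17.2 CPM, which goes against their Puma label. They are therefore called by their label throughout. Every comparison that involves Puma in telomerase-deficient cells rests on that label. Trp53 lay between 192 and 232 CPM over all libraries. Cdkn1a, a p53 target, reached 22.0 to 53.2 CPM in WT, 22.5 to 27.7 CPM in Puma-/-, 37.4 to 78.8 CPM in G3 mTerc-/-Puma+/+ and 80.1 to 111 CPM in replicates 1, 3 and 4 labelled as G3 mTerc-/-Puma-/-, with 177 CPM in replicate 2. Markers of granulocyte-monocyte progenitors such as Mpo and Elane were abundant in all libraries (12924 to 26063 summed CPM over 6 genes in the 14 libraries compared), beside 160 to 237 CPM for 6 stem cell genes. In the 14 libraries compared, the sum of 8 B lymphoid markers did not overlap between any of the genotypes. It was 85.1 to 95.5 CPM in WT, 97.7 to 109 CPM in Puma-/-, 46.9 to 71.4 CPM in G3 mTerc-/-Puma+/+ and 121 to 179 CPM in those labelled G3 mTerc-/-Puma-/-. That of 11 erythroid markers was 248 to 307, 225 to 320, 276 to 346 and 327 to 431 CPM in the same order. Replicate 2 labelled G3 mTerc-/-Puma-/-, outside these ranges, held 72.5 CPM of the B lymphoid list, below WT, and 1772 CPM of the erythroid list. With it, the B lymphoid sums of its group overlap those of WT and Puma-/-. No marker of either list was at 0 in any library, and their part in the results was not tested. The study's heatmaps omit replicate 2 labelled G3 mTerc-/-Puma-/-, although its methods state that all data were kept. It was left out of the comparisons, its values are given on their own, and all 15 libraries served as an alternative.

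GABP and NRF-1 are known to bind upstream of many nuclear genes for mitochondrial proteins. In RefSeq promoters of GRCm38.p6, which run from 250 bases before to 50 bases after a gene's start, 9 of the 10 genes had an entry, with 11 promoters in all. Ppargc1b had no entry. The GABP/ETS letters CCGGAAG were found on either strand in the promoters of 4 of the 9 genes, Gabpa, Polg, Tfam and Twnk. That is 4 of their 11 promoters, beside 8.86% of all 32851 promoters. The NRF-1 site GCGCATGC was found in Esrra alone among the 9, beside 2.71% of all promoters, and it overlaps the only match to the core TGCGCA, which 7.76% of promoters hold. The ERR element TCAAGGTCA was in none of the 9 (0.423% of all), and its shorter form AAGGTCA was in Twnk (4.72% of all). CCAAT stood in 3 of the 9 genes (3 of the 11 promoters) and in 37.4% of all promoters. The GC box GGGCGG stood in 6 of the 9 genes (6 of the 11 promoters) and in 35.7% of all. These are matches of letters and not sites shown to be bound. The 30-base windows around the matches for GABP, NRF-1 and the ERR are given here, because they hold the letters of factors that are members themselves, with the match in capitals and each window written 5′ to 3′ on the strand of its gene.
Esrra, NRF-1 site on the opposite strand, chr19:6921824-6921853, minus: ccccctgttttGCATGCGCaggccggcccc
Gabpa, GABP/ETS on the opposite strand, chr16:84835020-84835049, plus: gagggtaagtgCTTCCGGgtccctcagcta
Polg, GABP/ETS, chr7:79466293-79466322, minus: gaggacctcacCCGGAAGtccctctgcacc
Tfam, GABP/ETS, chr10:71238073-71238102, minus: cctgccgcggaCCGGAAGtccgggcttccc
Twnk, GABP/ETS on the opposite strand, chr19:45006437-45006466, plus: ctaaccggtgaCTTCCGGttccggggttgt
Twnk, GABP/ETS on the opposite strand, chr19:45006481-45006510, plus: ggagagttttgCTTCCGGagtcaccgcgag
Twnk, ERR half-element, chr19:45005529-45005558, plus: agggtattcacAAGGTCActgcacctagct

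The first base of the capitals lies 34 bases before the RefSeq start in Esrra, 93 in Gabpa, 38 in Polg and 47 in Tfam. The 2 GABP/ETS matches of Twnk lie 110 and 66 bases before its downstream start, and its ERR half-element 123 bases before the upstream start. By GENCODE vM21 on GRCm38, the Polg and Tfam matches fall in the 5′ untranslated exon of a longer transcript of the same gene, the Gabpa match in an exon of Atp5j on the opposite strand, and the ERR half-element of Twnk in an untranslated exon of Mrpl43 on the opposite strand. No annotated exon covers the match in Esrra or the other 2 in Twnk. No factor's binding was measured in these samples.

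Levels per length set the coactivators Ppargc1b and Ppargc1a apart from the other genes. In RPKM, that is CPM divided by the kilobases of merged exons, over the 14 libraries, Pprc1 was highest with 12.3 ± 1.25 (SD, n = 14), followed by Gabpa with 10.9 ± 0.756, Tfam with 10.8 ± 0.780, Esrra with 9.16 ± 0.727, Twnk with 8.05 ± 0.607, Polg with 7.54 ± 0.498, Nrf1 with 6.11 ± 0.445 and Sirt1 with 5.79 ± 0.810. The ranges of neighbours in this order overlapped, and only the steps from Tfam to Esrra and from Polg to Nrf1 exceeded the sum of both SDs. Ppargc1b followed at 1.29 ± 0.224 RPKM, below every other gene but Ppargc1a in every library. Ppargc1a ended the order at 0.0144 ± 0.00639 RPKM, at percentile 0.985 of the genes tested. The order above Ppargc1b, including its top, depends on the length used. Divided by the longest transcript instead, Esrra stood at 16.2 RPKM and Nrf1 at 15.6 RPKM, above Pprc1 at 14.7 RPKM, while Ppargc1b (1.41 RPKM) and Ppargc1a (0.0147 RPKM) stayed last.

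**Figure D1:**
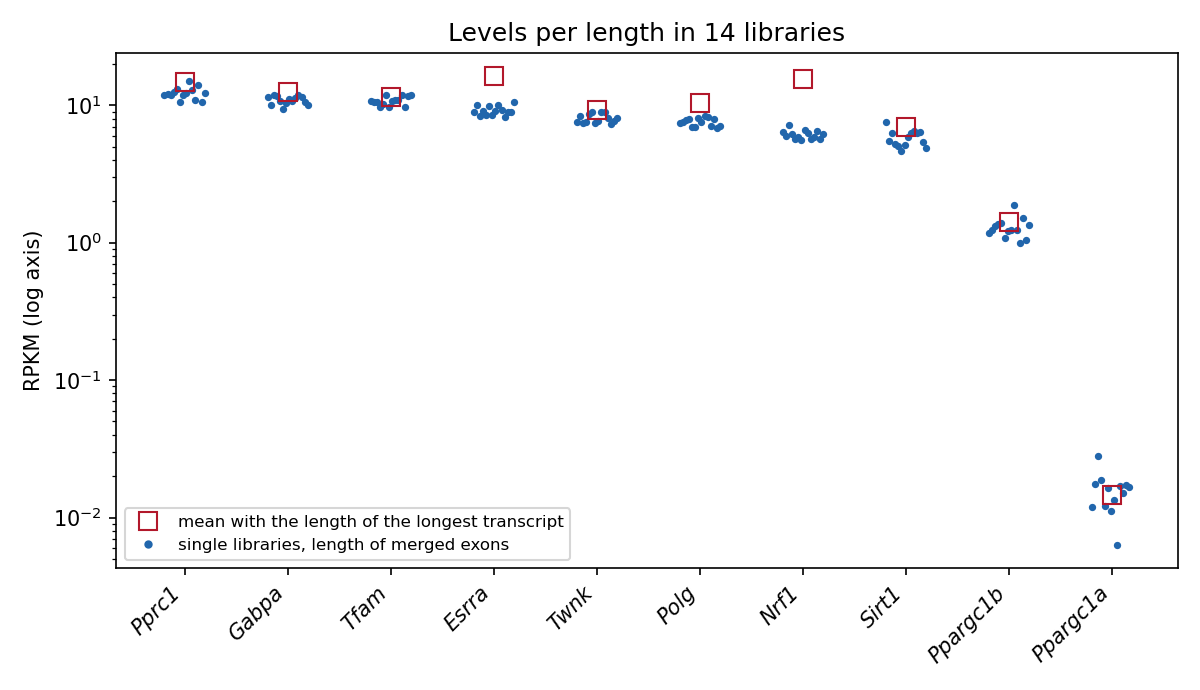
RPKM of the 10 genes on a log axis, with a blue point for each of the 14 libraries (merged exon length) and a red square for the mean with the length of the longest transcript. A library with 0 counts (WT replicate 2 for Ppargc1a) cannot be drawn on this axis. Apart from Ppargc1b and Ppargc1a, the means with merged exon length lie between 5.79 and 12.3 RPKM and the squares between 6.96 and 16.2 RPKM.

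Ppargc1a (ENSMUSG00000029167, chr5:51454250-51567726, minus strand of GRCm38) encodes PGC-1 alpha, and its RNA was at the edge of detection. WT libraries held 8, 0 and 13 counts, Puma-/- libraries 22, 14, 9 and 12, G3 mTerc-/-Puma+/+ libraries 10, 9, 5 and 12, and replicates 1, 3 and 4 labelled G3 mTerc-/-Puma-/- held 16, 13 and 14. The 4 groups overlapped, and a count of 0 allows up to 3 counts, or 0.0292 CPM in the smallest library, for counting error only. With so few reads, the fitted log2 fold change without mTerc of 0.029 (SE 0.43, adjusted p = 0.992) had a 95% interval from -46.6% to 95.2%, so a change of either size was not detectable at this depth.

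Ppargc1b (ENSMUSG00000033871) encodes PGC-1 beta and hosts the microRNA gene Mir378a in an intron. Its normalized level was 4.68, 4.91 and 5.32 CPM in WT, 5.41, 5.55, 4.32 and 4.86 CPM in Puma-/-, 4.92, 7.52, 4.96 and 3.94 CPM in G3 mTerc-/-Puma+/+ and 6.07, 4.15 and 5.35 CPM in replicates 1, 3 and 4 labelled G3 mTerc-/-Puma-/-. The highest and the lowest of the 14 libraries were thus replicates of the same genotype, G3 mTerc-/-Puma+/+. Pprc1 (ENSMUSG00000055491, chr19:46044886-46072915, plus strand), the PGC-1-related coactivator that responds to serum and growth, had 75, 75.8 and 74.3 CPM in WT, 78.2, 82.4, 66.7 and 75 CPM in Puma-/-, 76.7, 94.6, 80.7 and 68.9 CPM in G3 mTerc-/-Puma+/+ and 88.5, 65.9 and 77.5 CPM in the libraries labelled as G3 mTerc-/-Puma-/-. The WT libraries lay close together, and every other genotype had libraries above and below them.

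Esrra (ENSMUSG00000024955, chr19:6910977-6921813, minus strand) encodes ERR alpha, the nuclear receptor through which PGC-1 raises genes of oxidative metabolism. It measured 39.3, 44.0 and 36.6 CPM in WT, 39.9, 37.1, 43.7 and 37.3 CPM in Puma-/-, 39.6, 44.4, 40.5 and 35.9 CPM in G3 mTerc-/-Puma+/+ and 39.0, 39.3 and 46.1 CPM in the libraries labelled as G3 mTerc-/-Puma-/-. The means of the 4 genotypes ran from 39.5 to 41.5 CPM, less than the SD within any of them (3.07 to 4.01 CPM). Nrf1 (ENSMUSG00000058440, chr6:30047988-30153458, plus strand) encodes NRF-1, a factor for respiratory chain genes. Its values were 65.6, 61.7 and 73.7 CPM in WT, 63.7, 58.4, 60.7 and 57.4 CPM in Puma-/-, 67.4, 64.9, 58.2 and 60.2 CPM in G3 mTerc-/-Puma+/+ and 67.0, 58.3 and 63.1 CPM in the libraries labelled as G3 mTerc-/-Puma-/-. WT had the highest mean and Puma-/- the lowest, and their libraries overlapped. Gabpa (ENSMUSG00000008976, chr16:84834925-84863779, plus strand) encodes the DNA-binding subunit of GABP, also called NRF-2. It measured 64.6, 56.8 and 67.9 CPM in WT, 65.7, 60.6, 53.5 and 58.3 CPM in Puma-/-, 63.3, 61.5, 63.8 and 67.2 CPM in G3 mTerc-/-Puma+/+ and 65.5, 60.1 and 57.3 CPM in the libraries labelled as G3 mTerc-/-Puma-/-. All 4 groups overlapped.

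Sirt1 (ENSMUSG00000020063, chr10:63319005-63381704, minus strand) encodes an NAD-dependent deacetylase that acts on PGC-1 alpha and on p53. Its level was 40.3, 29.5 and 33.8 CPM in WT, 28.1, 26.7, 24.6 and 27.2 CPM in Puma-/-, 31.3, 33.3, 34.6 and 33.5 CPM in G3 mTerc-/-Puma+/+ and 34.1, 29.0 and 25.9 CPM in the libraries labelled as G3 mTerc-/-Puma-/-. All 4 Puma-/- libraries lay below all 3 WT libraries, in a comparison where 9.71% of all genes had groups that do not overlap. The libraries labelled G3 mTerc-/-Puma-/- overlapped with each other genotype. From the lowest to the highest of the 14 libraries the level of Sirt1 varied 1.64-fold, less than the 1.91-fold of Ppargc1b and more than the 1.22-fold to 1.44-fold of Pprc1, Esrra, Nrf1, Gabpa, Tfam, Polg and Twnk.

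Tfam (ENSMUSG00000003923, chr10:71225464-71238280, minus strand) encodes the protein that packs mitochondrial DNA and starts its transcription. It measured 47.7, 47.0 and 46.9 CPM in WT, 42.9, 45.4, 52.2 and 43.1 CPM in Puma-/-, 47.8, 48.5, 48.7 and 53.0 CPM in G3 mTerc-/-Puma+/+ and 43.3, 51.7 and 52.3 CPM in the libraries labelled as G3 mTerc-/-Puma-/-. All 4 G3 mTerc-/-Puma+/+ libraries lay above all 3 WT libraries, the nearest by 47.8 against 47.7 CPM. In that comparison 4.07% of all genes had groups that do not overlap. Polg (ENSMUSG00000039176, chr7:79446231-79466362, minus strand) encodes the catalytic subunit of the mitochondrial DNA polymerase. Its values were 80.2, 80.5 and 83.5 CPM in WT, 85.0, 75, 75.2 and 86.1 CPM in Puma-/-, 80.4, 89.3, 88.5 and 75.9 CPM in G3 mTerc-/-Puma+/+ and 85.1, 73.4 and 75.9 CPM in the libraries labelled as G3 mTerc-/-Puma-/-. Twnk (ENSMUSG00000025209, chr19:45005663-45012762, plus strand), the mitochondrial replicative helicase, measured 30.4, 33.6 and 29.6 CPM in WT, 30.2, 34.8, 35.9 and 29.8 CPM in Puma-/-, 31.1, 35.7, 35.6 and 32.6 CPM in G3 mTerc-/-Puma+/+ and 29.4, 30.8 and 32.7 CPM in the libraries labelled as G3 mTerc-/-Puma-/-. For Polg and Twnk all groups overlapped.

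Some of these genes share exonic bases with a gene on the opposite strand, and the strand setting of the counting is not given in the sources used here. The shared part is 12.6% of the exons of Twnk (with Mrpl43), 8.57% of Polg (with Fanci), 6.98% of Gabpa (with Atp5j) and 2.82% of Pprc1 (with Ldb1). It is 1.66% of Esrra (with Trmt112) and 1.22% of Sirt1 (with Gm16145), and Esrra shares another 2.07% with Mir6990 on its own strand. Nrf1, Tfam, Ppargc1a and Ppargc1b share no exonic base with another gene.

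**Figure D2:**
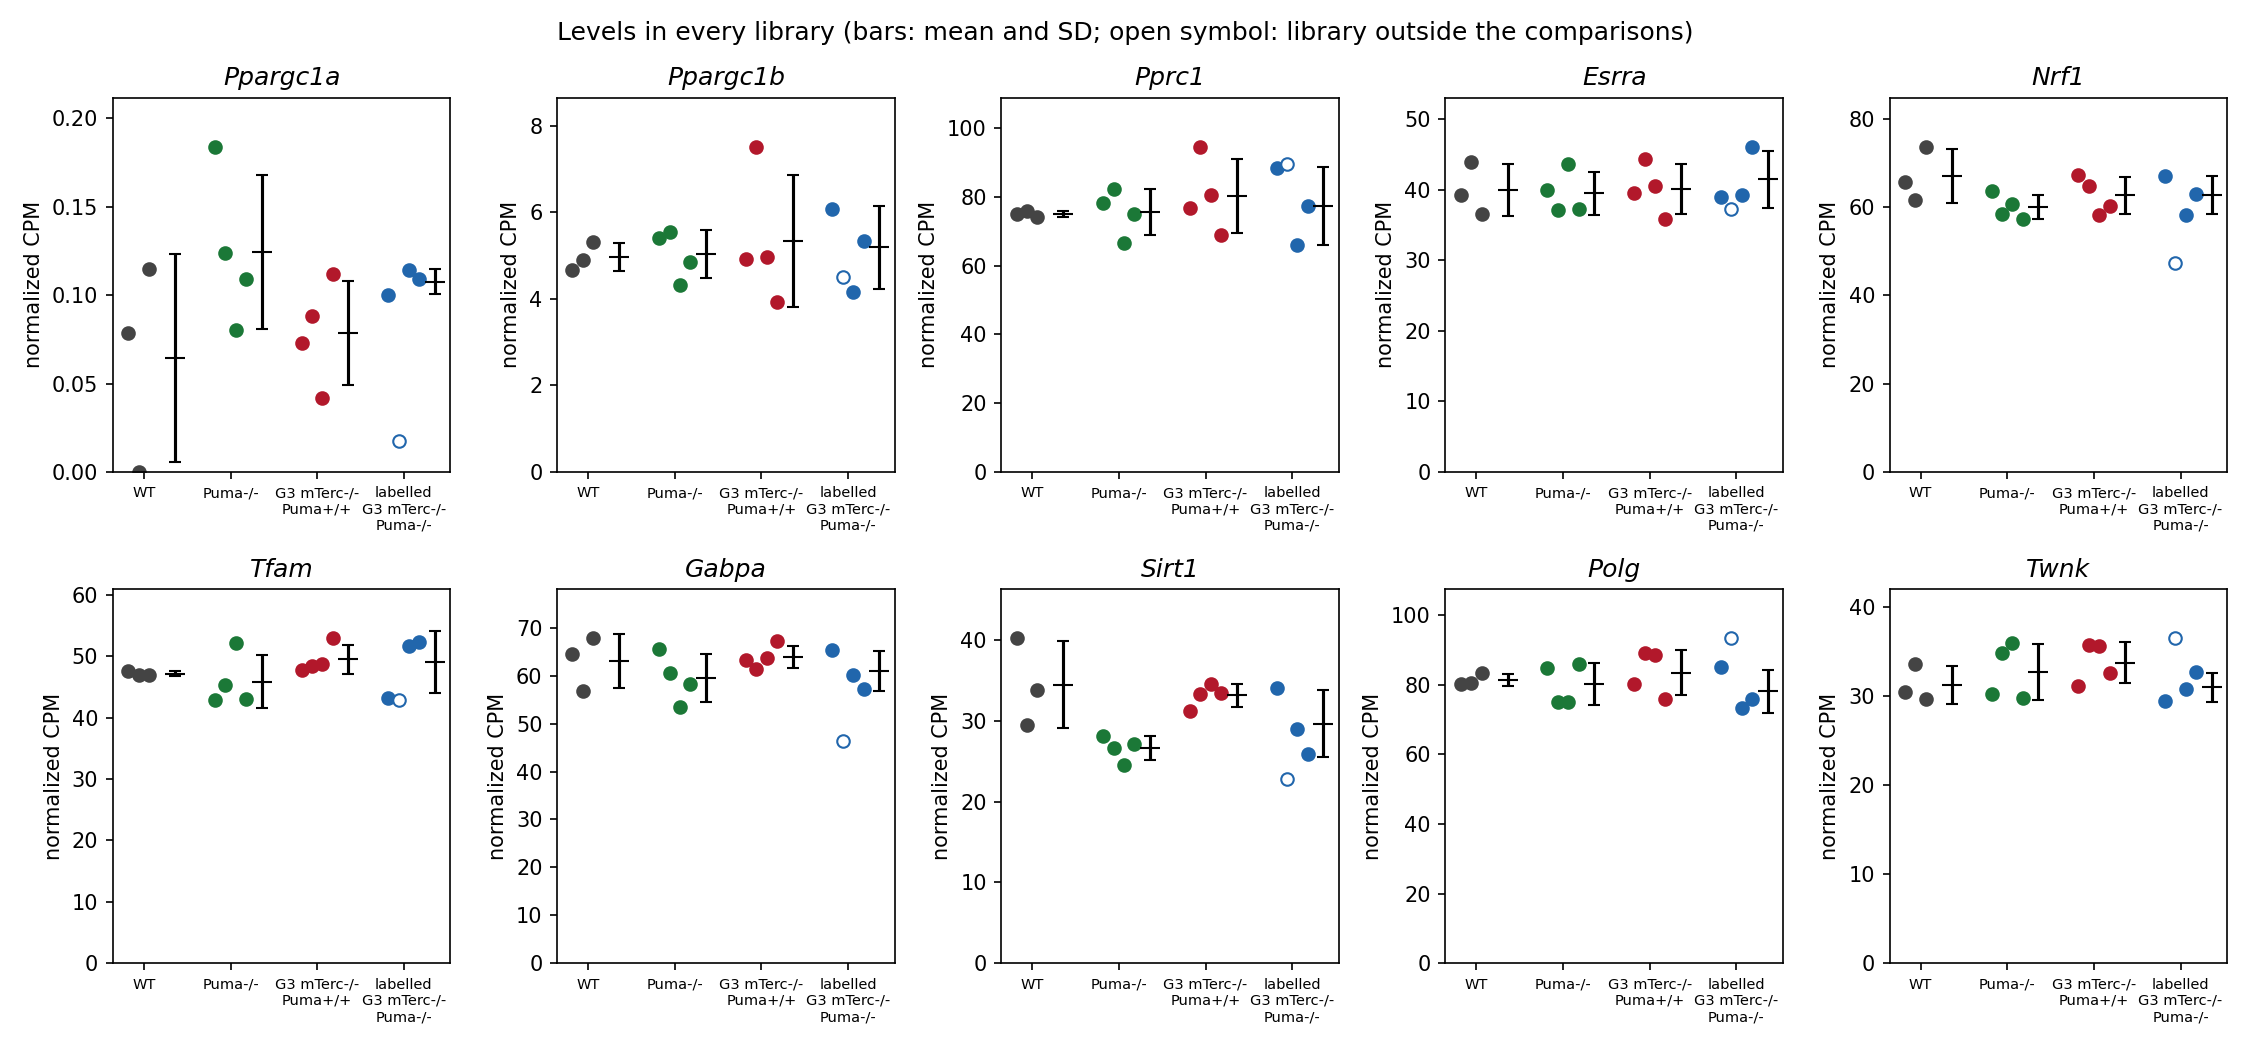
Normalized CPM (axes from 0) of each gene, with 1 point per library in 4 genotypes and, to the right of each group, the mean and SD of the libraries compared. The open symbol is replicate 2 labelled G3 mTerc-/-Puma-/-, and Sirt1 lies at 24.6 to 28.1 CPM in Puma-/-, 29.5 to 40.3 CPM in WT and 31.3 to 34.6 CPM in G3 mTerc-/-Puma+/+.

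Loss of mTerc was compared first, as the mean of its effects with and without Puma. The coactivators gave log2 fold changes of 0.029 for Ppargc1a, 0.073 for Ppargc1b (SE 0.14) and 0.064 for Pprc1 (SE 0.080). Among the transcription factors, Esrra gave 0.038 (SE 0.067), Nrf1 -0.016 (SE 0.056) and Gabpa 0.026 (SE 0.058), and Sirt1 gave 0.050 (SE 0.078). Of the mitochondrial DNA genes, Tfam gave 0.083 (SE 0.059), Polg -0.0016 (SE 0.057) and Twnk 0.016 (SE 0.062). None of the 10 was called by edgeR's quasi-likelihood test (adjusted p = 0.777 to 0.996), none was called by DESeq2 or limma-voom, beside 0.263% of all genes called by edgeR (50 of 18983), and none had an unadjusted p under 0.05, beside 7.76% of all genes. Their median of 0.034 stands beside a median of 0.010 over all genes tested, of which 53.1% had a positive estimate. No gene of the 10 separated the 7 mTerc-/- from the 7 mTerc+/+ libraries, beside 0.158% of all genes. In exact two-sided permutation tests over 3432 assignments of the 14 libraries p ran from 0.121 for Tfam to 0.934 for Nrf1, where the smallest possible p is 0.000583, and with all 15 libraries from 0.283 to 0.886. These tests pooled libraries with either Puma label, in unequal proportions on each side. They are therefore not tests of the averaged effect: for Sirt1 the pooled difference of mean log2 CPM was 0.0892 over the 14 libraries.

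The intervals say how large a fall these libraries leave room for. Over the 8 genes other than Ppargc1a and Ppargc1b, the lower ends of the 95% intervals lay between -8.98% (Nrf1) and -3.04% (Tfam), and the upper ends between 7.46% and 17.8%. For Ppargc1b the interval ran from -14.9% to 29.9%. In bulk RNA, fewer cells of a type and less RNA per cell cannot be told apart, so these bounds hold for the mixture of lineage-negative cells.

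Within Puma-proficient cells, G3 mTerc-/-Puma+/+ against WT, estimates ran from -0.10 for Nrf1 to 0.11 for Twnk, with 0.27 (SE 0.66) for Ppargc1a, and the median was 0.053 against 0.018 over all genes. None of the 10 was called by edgeR, DESeq2 or limma-voom, beside 0.0369% of all genes called by edgeR, and none had an unadjusted p under 0.05, beside 3.86% of all genes. Lower ends of the intervals of the 8 better measured genes lay between -18.3% and -5.34%. Tfam, whose groups do not overlap here, gave an estimate of 0.069 on the log2 scale (SE 0.084, adjusted p = 0.998 by edgeR) with each of the 4 libraries above WT, and it was 0.035 without G3 mTerc-/-Puma+/+ replicate 4. Groups without overlap were found for 4.07% of all genes in this comparison. With the libraries labelled as G3 mTerc-/-Puma-/- set against Puma-/-, estimates ran from -0.079 for Twnk to 0.16 for Sirt1, with -0.21 (SE 0.59) for Ppargc1a and a median of 0.039 beside 0.0092 over all genes. Again none was called by edgeR or the other tools, beside 0.306% of all genes called by edgeR, and none had an unadjusted p under 0.05, beside 8.42% of all genes.

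**Figure D3:**
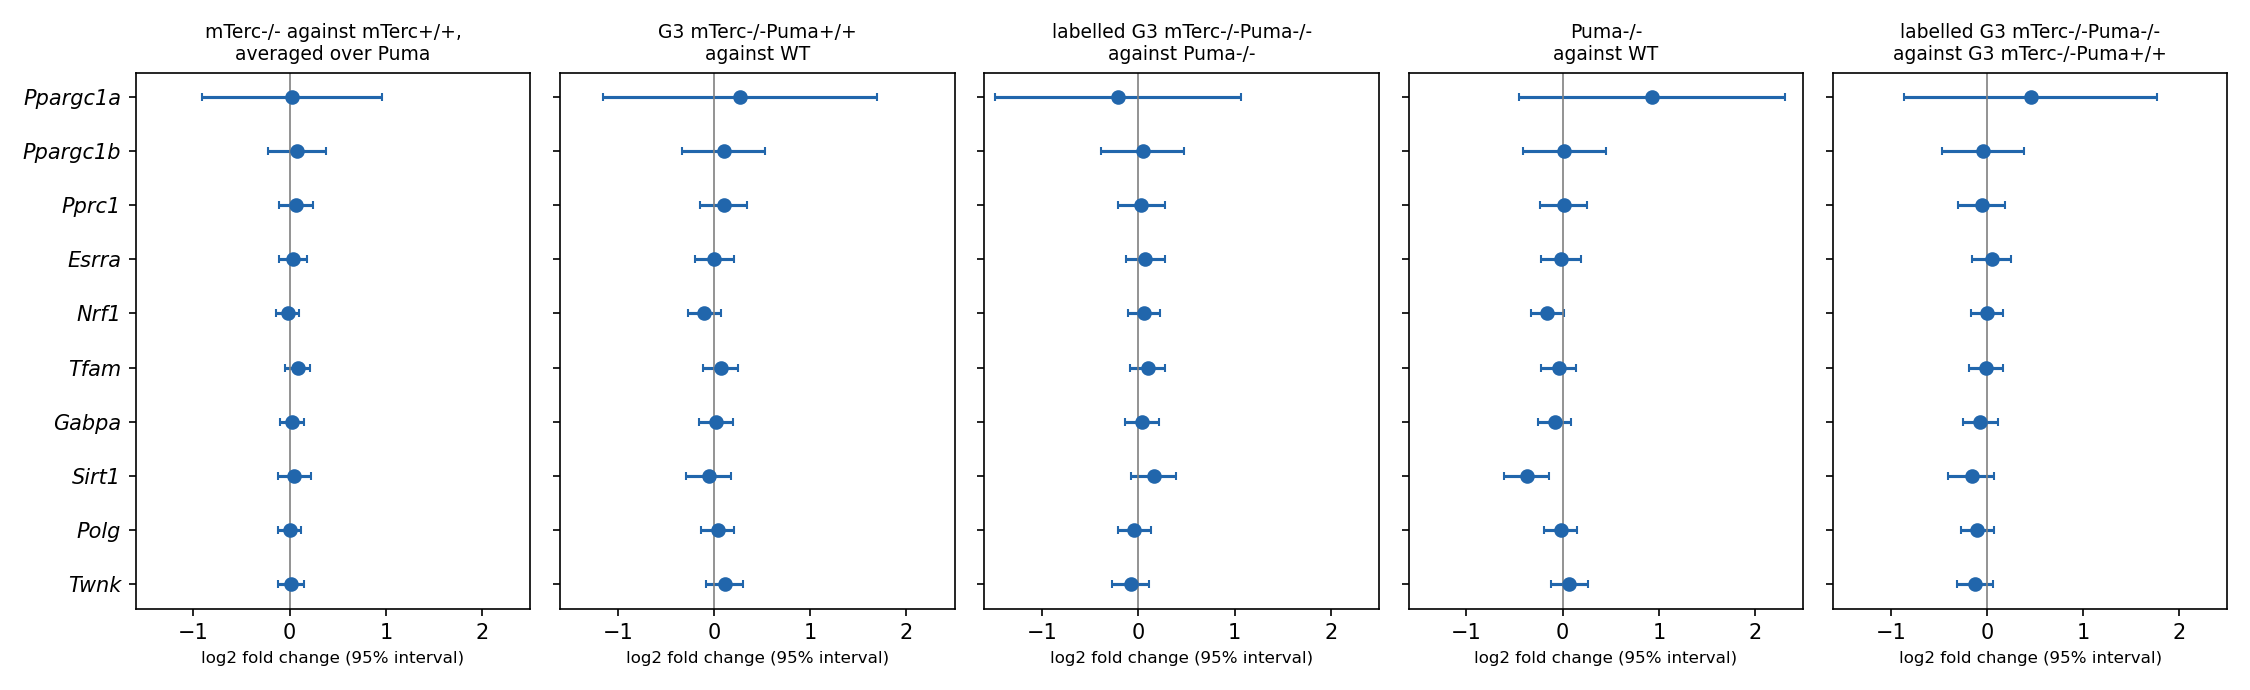
Log2 fold changes (points) with 95% intervals (bars) of the 10 genes in 5 comparisons, fitted by edgeR on 14 libraries. Intervals of Ppargc1a are wide in each panel, and that of Sirt1 in Puma-/- against WT (-0.61 to -0.14) is the only one that excludes 0.

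Loss of Puma with telomerase intact was compared next. Sirt1 was lower in Puma-/- than in WT by a log2 fold change of -0.37 (SE 0.11), with 26.6 ± 1.46 CPM (SD, n = 4) against 34.5 ± 5.45 CPM (n = 3), and a 95% interval from -34.4% to -9.13%. Its unadjusted p was 0.00435 and its adjusted p 0.357, so it did not pass the test. An unadjusted p under 0.05 was reached by 10.1% of all genes in this comparison, and 9.71% had groups that do not overlap, so 1 gene of 10 in each is near that background. Called by adjusted p were 0 of the 10 with edgeR, DESeq2 or limma-voom, beside 0.079% of all genes with edgeR. The other 9 genes had estimates from -0.16 for Nrf1 (unadjusted p = 0.0654) to 0.065 for Twnk, with 0.93 (SE 0.64) for Ppargc1a, and the median of the 10 was -0.019.

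Cell type markers, sex-linked genes and GC content were also compared between the Puma-/- and WT libraries. The summed level of 6 megakaryocyte markers was 322 to 519 CPM in Puma-/- and 132 to 281 CPM in WT, that of 6 macrophage and monocyte markers 1084 to 1547 CPM against 1562 to 2104 CPM, and none of either list was at 0 in any library. Their part in the level of Sirt1 was not tested. All 4 Puma-/- libraries held Xist at 444 to 926 CPM and the Y-linked Ddx3y at no more than 0.0427 CPM, while WT libraries held 1.62 to 412 CPM and 21.0 to 40.6 CPM. With Xist as a covariate the log2 fold change of Sirt1 was -0.40 (adjusted p = 0.585). The Sirt1 transcript is poor in G and C (44.0%), and the slope of log2 level on GC content was 0.0189 to 0.117 per 10 percentage points in Puma-/- and -0.0887 to 0.0414 in WT. With the trends on GC content and length removed, the log2 fold change of Sirt1 was -0.35 (adjusted p = 0.324). The estimate was -0.47 without WT replicate 2 (adjusted p = 0.116) and -0.26 without WT replicate 1 (adjusted p = 0.716), the ends of the range when single libraries are omitted.

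Among telomerase-deficient cells, the libraries labelled as G3 mTerc-/-Puma-/- against G3 mTerc-/-Puma+/+ gave estimates from -0.16 for Sirt1 to 0.048 for Esrra, with 0.46 (SE 0.61) for Ppargc1a and a median of -0.046 beside -0.015 over all genes. None of the 10 was called by edgeR, DESeq2 or limma-voom, beside 0.0738% of all genes called by edgeR, and none had an unadjusted p under 0.05, beside 6.22% of all genes. Sirt1 thus had a lower estimate in both comparisons that set a Puma-/- label against Puma+/+, without passing the test in either. The interaction, which asks whether loss of mTerc acts differently with and without Puma, called none of the 10 with any of the 3 tools, beside 0.0527% of all genes called by edgeR, and gave none an unadjusted p under 0.05, beside 4.93% of all genes. Its estimates were 0.21 (SE 0.15) for Sirt1, 0.16 (SE 0.11) for Nrf1 and -0.19 (SE 0.12) for Twnk, and the others lay between -0.077 and 0.066 apart from Ppargc1a (-0.48, SE 0.89). A test for any difference among the 4 genotypes called none of the 10 by any tool, beside 0.448% of all genes with edgeR. There edgeR gave Sirt1 alone an unadjusted p under 0.05 (0.0158, with an adjusted p = 0.291), as it did for 11.4% of all genes.

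Replicate 2 labelled G3 mTerc-/-Puma-/- was the highest or lowest of the 15 libraries for 6 of the 10 genes, in Tfam and Twnk by little. It had the lowest level of the 15 libraries for Sirt1 (22.8 CPM), Nrf1 (47.4 CPM), Gabpa (46.4 CPM) and Tfam (42.9 CPM), and the highest for Polg (93.5 CPM) and Twnk (36.5 CPM). Its 3 fellow replicates had 58.3 to 67.0 CPM of Nrf1 and 57.3 to 65.5 CPM of Gabpa. The library held 89.7 CPM of Pprc1, 37.3 CPM of Esrra, 4.51 CPM of Ppargc1b and 2 counts of Ppargc1a. With it included, edgeR called none of the 10 genes in any of the 7 comparisons, beside 4 to 59 of all genes. The lowest adjusted p was 0.379, for Sirt1 in the test for any difference. The estimates without mTerc then were -0.018 for Gabpa, 0.033 for Polg and -0.13 for Ppargc1a, each of the opposite sign to that with 14 libraries.

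Other genes of the pathway were followed in 4 lists, of which 77 genes were matched and 74 passed the filter. None of the 74 was called by edgeR in any comparison, beside 0.0369% to 0.448% of all genes. Among 18 partners and regulators of PGC-1, 9 had higher and 9 lower estimates without mTerc, with a median log2 fold change of 0.0042 and no unadjusted p under 0.05. The smallest p belonged to Flcn, the folliculin gene that restrains PGC-1 alpha through AMPK (-0.078, SE 0.057, adjusted p = 0.786 by edgeR), and to Gabpb1, which encodes the partner subunit of Gabpa (0.051, SE 0.041, adjusted p = 0.8). DESeq2 called 1 gene of the lists, Pparg, in the test for any difference (adjusted p = 0.046), in which it called 836 of all genes and edgeR gave an adjusted p of 0.307. Pparg was named after its values were seen, as were Yy1 and Prkaa2. The edgeR estimates of Pparg were 0.95 in Puma-/- against WT (unadjusted p = 0.0178, adjusted p = 0.423) and 0.84 in the libraries labelled as G3 mTerc-/-Puma-/- against G3 mTerc-/-Puma+/+ (unadjusted p = 0.0278, adjusted p = 0.696). Yy1 (-0.18, adjusted p = 0.443) and Prkaa2 (0.75, adjusted p = 0.488) also had an unadjusted p under 0.05 in Puma-/- against WT, as 10.1% of all genes did.

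Of 23 genes of mitochondrial DNA replication and transcription, 13 had higher and 10 lower estimates without mTerc, with a median of 0.030 and no unadjusted p under 0.05. In G3 mTerc-/-Puma+/+ against WT, 19 of 23 were higher (median 0.086), beside 54.5% of all genes. In the libraries labelled as G3 mTerc-/-Puma-/- against Puma-/-, 9 were higher and 14 lower (median -0.014), where 52% of all genes were higher. Set against G3 mTerc-/-Puma+/+, the same libraries had 20 lower (median -0.10), where 46.3% of all genes were higher. These are counts of signs, and none of the 23 was called by edgeR in any pair. For the interaction 19 were lower (median -0.10), and none had an unadjusted p under 0.05. Exog had one by edgeR in the telomerase-deficient pair (-0.25, unadjusted p = 0.0335, adjusted p = 0.727), as 6.22% of all genes did. Tk2 had one in Puma-/- against WT (0.24, unadjusted p = 0.036, adjusted p = 0.464), as 10.1% of all genes did. Both were named after their values were seen. The smallest p without mTerc belonged to Dguok, the mitochondrial deoxyguanosine kinase (-0.14, SE 0.071, adjusted p = 0.659 by edgeR). Dguok lay at 27.7 to 28.3 CPM in the libraries labelled as G3 mTerc-/-Puma-/- and 28.2 to 37.1 CPM in Puma-/-. It lay at 25 to 30.3 CPM in G3 mTerc-/-Puma+/+ and 28.1 to 32.9 CPM in WT, and both pairs overlapped. Next came Lrpprc, which stabilises mitochondrial mRNAs (0.11, SE 0.059, adjusted p = 0.721). Among the 20 targets of PGC-1 and ERR alpha, 17 had higher and 3 lower estimates, the median was 0.070 and 2 had an unadjusted p under 0.05, both with higher levels, which is near the 7.76% of all genes in this comparison. These were Idh3a, a subunit of isocitrate dehydrogenase (0.19, SE 0.083, adjusted p = 0.611), and Cycs, which encodes cytochrome c (0.24, SE 0.11, adjusted p = 0.625). Cycs averaged 116 ± 4.48 CPM in WT (SD, n = 3), 108 ± 14.2 CPM in Puma-/- (n = 4), 133 ± 30.8 CPM in G3 mTerc-/-Puma+/+ (n = 4) and 130 ± 17.8 CPM in the libraries labelled as G3 mTerc-/-Puma-/- (n = 3). The groups overlapped. Of the targets, 16 of 20 had lower estimates in Puma-/- than in WT (median -0.11), with no unadjusted p under 0.05.

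The 13 mRNAs encoded by mitochondrial DNA itself, which Tfam, Polg and Twnk serve, had a median of -0.26 without mTerc. Their estimates were lower for 12 of the 13, and 3 had an unadjusted p under 0.05 (7.76% of all genes did), but none was called by edgeR, DESeq2 or limma-voom. In G3 mTerc-/-Puma+/+ against WT, 11 of 13 were lower (median -0.11), and none had an unadjusted p under 0.05 by edgeR. In the libraries labelled as G3 mTerc-/-Puma-/- against Puma-/-, 13 of 13 were lower (median -0.38). There 2 had an unadjusted p under 0.05 by edgeR, beside 8.42% of all genes. Lower estimates were found in the Puma comparisons as well: 13 of 13 were lower in the libraries labelled as G3 mTerc-/-Puma-/- than in G3 mTerc-/-Puma+/+ (median -0.36), and 12 of 13 in Puma-/- than in WT (median -0.11). The lowest p values without mTerc belonged to mt-Nd5 (-0.29, SE 0.12, unadjusted p = 0.0258, adjusted p = 0.538 by edgeR) and mt-Nd4 (-0.33, SE 0.14, unadjusted p = 0.0316, adjusted p = 0.575), both subunits of complex I. Means of mt-Nd5 were 6673 ± 713 CPM in WT (SD, n = 3), 6549 ± 712 CPM in Puma-/- (n = 4), 6175 ± 1012 CPM in G3 mTerc-/-Puma+/+ (n = 4) and 4729 ± 848 CPM in the libraries labelled as G3 mTerc-/-Puma-/- (n = 3). These transcripts are cut from shared precursors, so the 13 are not independent of each other. As a share of all counts, the 13 mRNAs made up 8.64%, 7.55% and 8.24% in WT, 7.41%, 6.92%, 9.58% and 7.83% in Puma-/-, 5.80%, 7.96%, 7.83% and 8.79% in G3 mTerc-/-Puma+/+ and 6.46%, 7.10% and 4.83% in the libraries labelled as G3 mTerc-/-Puma-/-. The left-out replicate 2 of the last group held 9%, and with it the median in that group against Puma-/- was -0.27 and not -0.38. That median was -0.21 without Puma-/- replicate 3, -0.24 without replicate 4 labelled G3 mTerc-/-Puma-/- and -0.53 without its replicate 3, and the median of -0.26 without mTerc was -0.17 without the same replicate 4 and -0.32 without that replicate 3. Cell type markers differed between these groups too. Replicates 1, 3 and 4 labelled as G3 mTerc-/-Puma-/- held 120 to 178 CPM of the megakaryocyte list against 322 to 519 CPM in Puma-/-. They held 327 to 431 against 225 to 320 CPM of the erythroid list, and 121 to 179 against 97.7 to 109 CPM of the B lymphoid list. They also held 1741 to 1836 against 1084 to 1547 CPM of the macrophage and monocyte list and 160 to 178 against 192 to 237 CPM of the stem cell list. Ddx3y was at 2.89 to 46.6 CPM against at most 0.0427 CPM, and Xist at 0.393 to 665 CPM against 444 to 926 CPM, and with Xist as a covariate the median was -0.48. The left-out replicate 2 held 143 CPM of the megakaryocyte list, 1772 CPM of the erythroid list and 72.5 CPM of the B lymphoid list. Its sums were 1175 CPM for the macrophage and monocyte list and 200 CPM for the stem cell list. The markers' part in the level of the mitochondrial mRNAs was not tested.

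**Figure D4:**
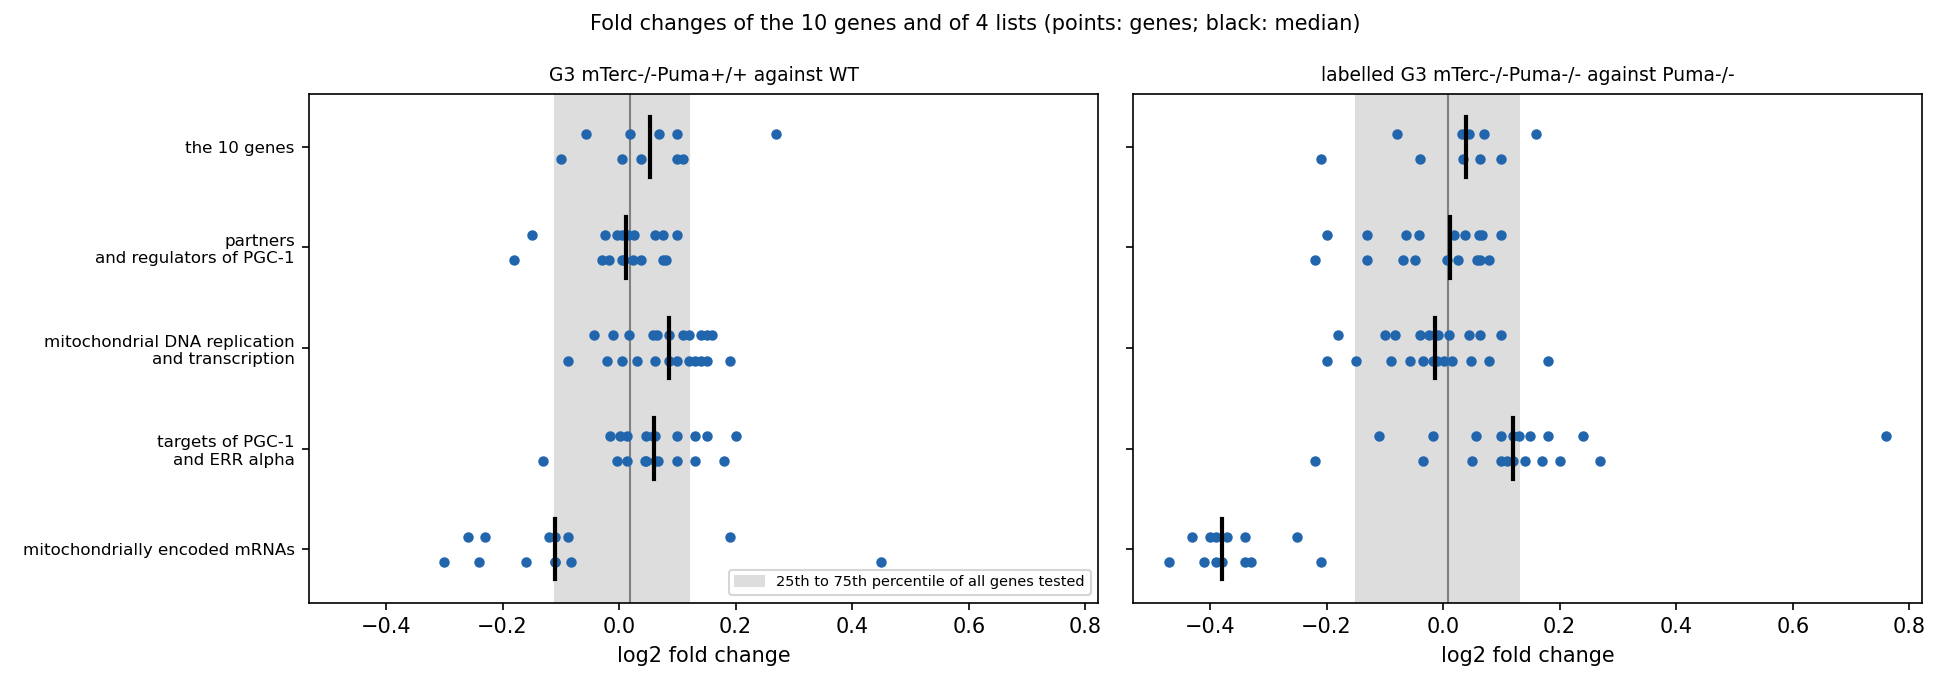
Log2 fold changes without mTerc in Puma+/+ cells (left) and among libraries labelled as Puma-/- (right), with 1 point per gene, a black bar at each list's median and grey from the 25th to the 75th percentile of all genes tested. The mitochondrially encoded mRNAs have medians of -0.11 and -0.38, and those of the 10 genes are 0.053 and 0.039.

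Levels of the 10 genes varied together in part and in opposite directions in part. Of 45 pairs, 26 had a positive Pearson r of log2 CPM over the 14 libraries, and the median r was 0.112. The highest was that of the coactivators Ppargc1b and Pprc1, with r = 0.934 (Spearman's rho 0.899), r = 0.945 after the genotype means were removed, r = 0.906 without the 2 libraries farthest from the median of Ppargc1b, and r = 0.775 with all 15 libraries. Both peaked in G3 mTerc-/-Puma+/+ replicate 2, which has the lowest scaling factor of the 14 libraries (0.926). The lowest was that of Esrra and Gabpa, with r = -0.634 (rho -0.582), which was -0.739 within genotypes and -0.223 with all 15 libraries. These are descriptions of pairs picked as extremes, and the points share depth, scaling and base composition of the libraries. Ppargc1a was not closely tied to Ppargc1b (r = 0.084) or Pprc1 (r = -0.013).

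Over the same 14 libraries, the gene most like each member by Pearson r was sought among all genes tested. It was Rpap1 for Ppargc1b (r = 0.945), Gcn1l1 for Pprc1 (0.956), Tmem120a for Esrra (0.927), Esyt1 for Nrf1 (0.942), Vcpip1 for Gabpa (0.953), Arih1 for Sirt1 (0.952), Med30 for Tfam (0.900), Mtf1 for Polg (0.879) and Gpn3 for Twnk (0.864). For Ppargc1a, at its few counts, it was Gm2541 (0.873). No member was the closest match of another.

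**Figure D5:**
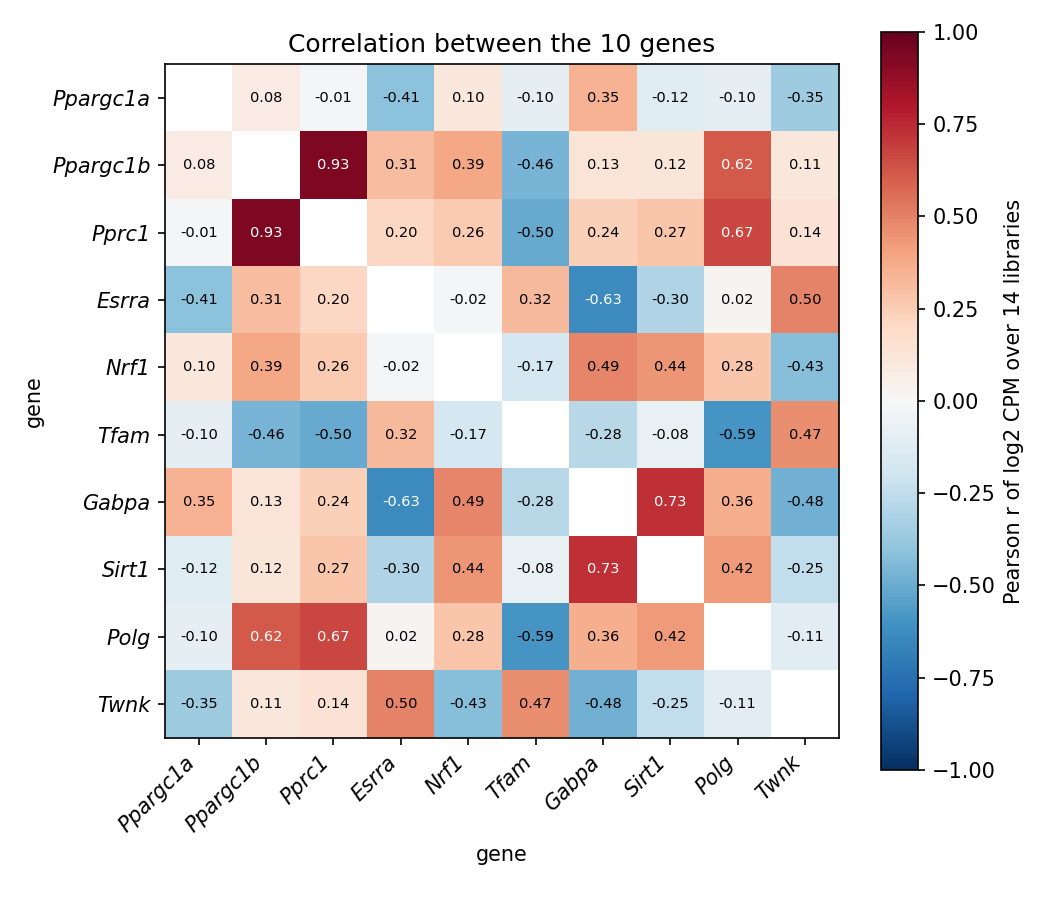
Pearson r of log2 CPM over 14 libraries for each of the 45 pairs, red for positive and blue for negative values. Ppargc1b, Pprc1 and Polg form the most positive block (0.616 to 0.934), and Tfam has negative values with each of these genes (-0.588 to -0.463).

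Within genotypes, 8 of the 10 members varied less than the median gene, in a comparison not matched for level. By RPKM these 8 lay at percentiles 63.7 to 77.7 of the genes tested. The SD of log2 CPM between replicates was 0.0978 for Nrf1, 0.101 for Polg, 0.104 for Gabpa, 0.106 for Tfam, 0.108 for Twnk, 0.125 for Esrra, 0.146 for Sirt1 and 0.158 for Pprc1, all below the median of 0.237 over all genes tested. It was 0.265 for Ppargc1b and 0.795 for Ppargc1a, the least abundant members.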

How the data were processed

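Poly(A)-selected RNA of 15 libraries was sequenced. The authors trimmed the reads (Trimmomatic 0.38) and counted them per gene with STAR 2.5.2b on GRCm38 (mm10), per the labels and methods, and deposited raw counts for 45706 Ensembl genes. The annotation release and strand setting are not given in the sources used here. Symbols came from GENCODE mouse vM21. Groups came from the sample titles.

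Analysis used R 4.3.3 and edgeR 4.0.16: filterByExpr (18983 genes), TMM factors (0.926 to 1.07), 1 fit of 4 genotypes over 14 libraries, quasi-likelihood tests and Benjamini-Hochberg adjustment over all genes tested, with a threshold of 0.05. CPM are scaled by TMM, except for the checked genes Terc, Bbc3, Trp53, Cdkn1a, Xist and Ddx3y, which are scaled by library size. Log2 CPM used a prior count of 2. RPKM divide CPM by merged exon length. The left-out library is shown with the scaling of all 15. Replicates differed beyond counting noise (chi-square per gene 41.8 or more). DESeq2 1.42.0, limma-voom (limma 3.58.1), other filters, scalings, covariates and leaving out each library were alternatives. The correction for GC content and length was chosen after seeing the data. The edgeR fit was tested on simulated counts.

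The members, the lists and the rules were chosen with earlier results of these data known. All 10 members were named. Log2 fold changes are printed for every member without mTerc, and elsewhere for those with an unadjusted p under 0.05 or groups without overlap. For the rest ranges are given, with the genes at their ends. Exceptions are Ppargc1a, which is printed on its own, and Sirt1, Nrf1 and Twnk for the interaction. None of these exceptions had an unadjusted p under 0.05 there. From each list, genes with an adjusted p under 0.05 or else the 2 with the smallest p without mTerc were named. Cell type markers were summed over fixed lists, and 6 of the lists are given in the text.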

Additional observations from a re-analysis of the deposited data

Results flagged for a closer look

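Among the 30 sets of 4 replicates of a member (10 genes in 3 genotypes), 1 had a replicate far from the others. Replicate 2 labelled G3 mTerc-/-Puma-/- had 0.0172 CPM of Ppargc1a, from 2 counts, where the next of the 4 had 0.1 CPM. The gap was 0.857 of the whole range, above Dixon's 95% critical value for 4 samples. Chance flags about 1 in 20 such sets, the values are counts of 2 to 16 reads, and this is the library outside the comparisons.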

How the results depend on the processing

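None of the 10 members passed an adjusted p of 0.05 in any comparison under any alternative run, including DESeq2, limma-voom, all 15 libraries and each left-out library. The lowest adjusted p was 0.0910 (DESeq2, Sirt1, any difference among the 4 genotypes). The medians of the members moved by less than the spread between replicates (SD 0.063), except without replicate 1 labelled G3 mTerc-/-Puma-/-, where they were -0.032 in that group against Puma-/- and -0.092 for the interaction. Over all left-out libraries these medians ran from -0.032 to 0.084 and from -0.092 to 0.032, and that of the telomerase-deficient groups against each other (-0.046) from -0.11, without the same replicate 1, to -0.00085. Without mTerc the members' median ran from 0.0052 to 0.05, in G3 mTerc-/-Puma+/+ against WT from 0.00082 to 0.07 (both lowest without G3 mTerc-/-Puma+/+ replicate 2) and in Puma-/- against WT from -0.044 to -0.0014. Medians without mTerc ran from -0.045 (without replicate 1 labelled G3 mTerc-/-Puma-/-) to 0.037 (without its replicate 4) for the partners, 0.0098 to 0.069 for the mitochondrial DNA genes and 0.047 to 0.11 for the targets.

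Estimates without mTerc that lie near 0 changed sign. Gabpa was -0.018 with all 15 libraries and -0.027 with the GC and length correction. Polg was 0.033 with 15 libraries, 0.0013 with library size alone and 0.0061 with all genes of at least 1 count. Ppargc1a was -0.13 with 15 libraries, -0.10 with Xist as a covariate and -0.026 with the GC and length correction. With single libraries left out, estimates ran from -0.0032 to 0.076 for Esrra, -0.0082 to 0.055 for Gabpa, -0.044 to 0.022 for Nrf1, -0.034 to 0.021 for Polg, -0.26 to 0.39 for Ppargc1a, -0.034 to 0.14 for Ppargc1b, -0.0067 to 0.11 for Sirt1 and -0.0098 to 0.045 for Twnk. The cause was not tested.

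Deviations of same-numbered libraries from their genotype means correlated from -0.253 to 0.175, above 0.1 in 3 of 18 pairs. Differently numbered libraries were not correlated, so these values cannot decide whether replicate numbers pair the samples. With the replicate block, Polg was 0.0012 and Ppargc1a -0.026 without mTerc, Sirt1 was -0.35 in Puma-/- against WT (adjusted p = 0.513), no member was called, and 23 of all genes were called without mTerc in place of 50.

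The number of all genes called without mTerc (50 with edgeR) was 252 with DESeq2, 30 with limma-voom, 32 with 15 libraries, 24 with Xist as a covariate and 24 to 109 with single libraries left out (109 without WT replicate 3). DESeq2 called more genes in every comparison (46 and 7 for G3 mTerc-/-Puma+/+ against WT, 287 and 58 for the libraries labelled as G3 mTerc-/-Puma-/- against Puma-/-, 137 and 15 for Puma-/- against WT, 172 and 14 for those labelled G3 mTerc-/-Puma-/- against G3 mTerc-/-Puma+/+, 64 and 10 for the interaction, 836 and 85 for any difference). With single libraries left out, the edgeR counts ran in the same order from 1 to 8, 18 to 93, 11 to 28, 4 to 38, 5 to 11 and 34 to 115. Further counts that moved by over 1.5 times were, with 15 libraries, 4 for G3 mTerc-/-Puma+/+ against WT, 6 for the telomerase-deficient groups against each other and 48 for any difference. With library size alone the telomerase-deficient groups gave 8, with all genes of at least 1 count 33 (149 for any difference), and with those groups fitted alone 2. Fitted alone, G3 mTerc-/-Puma+/+ against WT gave 3 and the libraries labelled as G3 mTerc-/-Puma-/- against Puma-/- gave 90. The latter gave 32 with Xist as a covariate and 21 with the replicate block, any difference gave 28 and 40, and the interaction gave 5 with limma-voom. Ppargc1a had at most 22 counts in a library, and Ppargc1b had 424 to 969 over the 14 libraries. How far depth limits the members was not tested.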
